A study of Homo sapiens with 6 samples.

Results

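The HNRNP, SRSF and ELAV genes encode families of RNA-binding proteins that bind pre-mRNA and mRNA and shape splicing, export, stability and translation. The genes described here were those whose symbol begins with HNRNP and a letter, the numbered SRSF genes, ELAVL1 to ELAVL4, TRA2A, TRA2B and PTBP1 to PTBP3. The rule used names and no measured value, although earlier results of these data were known when it was written. Of 27745 genes listed, 45 matched and 0 antisense or pseudogene rows had to be left out. They comprise 12 SR proteins, 2 TRA2 proteins, the hnRNP groups A/B (6 genes), C (3), D (2), F/H (4), K, M and R (3), L (2) and U (4), 3 PTB proteins and 4 ELAV proteins.

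RNA-seq had been performed on MDA-MB-231, a line of triple-negative breast cancer cells, to ask what depends on the long non-coding RNA MIR100HG. The 6 samples fall into 3 groups of 2 biological replicates. Cells were infected with lentivirus carrying sh-TRC, the control shRNA vector, or with sh-MIR100HG-1 or sh-MIR100HG-2, each directed at MIR100HG. The samples are called CTR1 and CTR2 in the control, KD1-1 and KD1-2 for the first shRNA and KD2-1 and KD2-2 for the second, and the methods give 72 h from infection to collection. All groups therefore carry a lentiviral vector, all come from 1 cell line, and no group is uninfected.

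SR proteins carry an RNA-recognition motif and a domain rich in arginine and serine, bind exonic enhancers and mostly favour the inclusion of the exons they bind, and the TRA2 proteins do the same at GAA-rich sequences. Many hnRNPs act in the opposite direction on nearby sites, among them the PTB proteins, which bind pyrimidine tracts and repress exons. ELAVL1 (HuR) binds AU- and U-rich elements of mRNA and stabilizes many targets, and MIR100HG transcripts have been described as binding it. Many of these genes limit their own level through "poison" exons or retained introns that send the mRNA to nonsense-mediated decay (NMD), and PTBP1 keeps its neuronal paralog PTBP2 low by repressing a PTBP2 exon.

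The 3 sets of sequences below were read from GRCh37. The first are the sites targeted by the shRNAs, which bear on every comparison because each shRNA matched 1 place in the genome. Both lie on the minus strand of chromosome 11 in MIR100HG, at chr11:121962132-121962152 for sh-MIR100HG-1 and at chr11:121961961-121961981 for sh-MIR100HG-2, and are written 5′ to 3′ on the gene's strand.
Target of sh-MIR100HG-1: ttcctctgtttgtacttaaat
Target of sh-MIR100HG-2: gagagtgacctacagaataaa
In annotated transcripts of these genes the longest run shared with the 21-base target was 11 bases for sh-MIR100HG-1, in SRSF5, and 12 bases for sh-MIR100HG-2, in SRSF10.

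The second set is the exon through which PTBP1 represses PTBP2, shown because PTBP1 and PTBP2 differed in opposite directions between samples. Exon 10 of PTBP2 has 34 bases (chr1:97271975-97272008, plus strand), and skipping it shifts the reading frame. The 100 intron bases before it (chr1:97271875-97271974) are 73.0% pyrimidine. Capitals mark TCTT, a tetramer that PTB proteins bind, read on the transcribed strand with overlapping copies counted.
PTBP2 intron before exon 10: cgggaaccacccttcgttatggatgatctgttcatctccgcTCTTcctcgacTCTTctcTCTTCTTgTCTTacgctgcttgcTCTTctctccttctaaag
PTBP2 exon 10: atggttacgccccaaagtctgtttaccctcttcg
This window holds 6 copies of TCTT, against a median of 1 before the 189562 annotated internal exons of protein-coding transcripts. Of those exons 0.184% have as many or more.

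The third is the poison exon of TRA2B, shown because TRA2B and its paralog TRA2A were both lower with sh-MIR100HG-2 than with sh-MIR100HG-1. This exon 2 has 276 bases (chr3:185649365-185649640, minus strand) and its inclusion is promoted by the TRA2 proteins themselves. It is part of 3 of 15 annotated TRA2B transcripts, of which 0 are annotated as protein-coding. Capitals mark GAA.
TRA2B exon 2: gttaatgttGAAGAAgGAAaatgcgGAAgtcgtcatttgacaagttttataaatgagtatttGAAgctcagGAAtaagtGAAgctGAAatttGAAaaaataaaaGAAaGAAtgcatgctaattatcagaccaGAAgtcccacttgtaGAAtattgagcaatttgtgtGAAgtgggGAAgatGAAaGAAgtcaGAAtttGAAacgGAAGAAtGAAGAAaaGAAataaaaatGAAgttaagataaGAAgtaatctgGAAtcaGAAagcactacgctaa
It holds 28 copies of GAA, 10.1 per 100 bases. The median was 2.10 in the 125802 internal exons of protein-coding transcripts that have 100 bases or more. That set leaves out this exon, and 0.118% of its exons are at least as dense. A match of letters is a description and not a binding site. The counts are per gene over all exons, so the use of these exons was not measured.

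The total counts per sample ranged from 43804736 to 64588388, and these genes took between 0.777% (KD2-2) and 1.08% (KD1-1) of them. MIR100HG had 41.9 and 58.5 CPM (counts scaled to library size, after TMM normalization between samples) in the controls and between 10.4 and 16.6 CPM in the 4 knockdown samples, a log2 fold change (log2FC) of -1.86 (standard error 0.25). Its adjusted p was 0.381 (quasi-likelihood test of edgeR). Of the markers expected in this line, VIM had at least 1607 CPM, CD44 at least 538 and EGFR at least 403 in every sample, and KRT18 and AXL at least 261 and 999, while ESR1 had at most 2.79, PGR at most 0.0236, CDH1 at most 7.05 and GATA3 at most 13.0. ERBB2, also listed as low in this line, had between 71.6 and 116 CPM. The leukocyte marker PTPRC had at most 0.689 CPM, the hepatocyte marker ALB at most 0.261 and the neuronal markers RBFOX3 and SYP at most 0.567 and 2.27. These are bulk samples, so fewer cells of a type and less RNA per cell cannot be told apart.

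Levels were compared between genes in TPM (counts divided by exon length and scaled to the same total in each sample), because CPM favours long genes. The filter of the methods, which drops a gene when 3 or more of the 6 samples have fewer than 5 counts, left 39 of the 45 genes. Of these 39, 20 were among the top 10% of all tested genes by mean TPM (119.7 TPM or more) and 36 were above the median of 15.8. The highest mean was that of HNRNPA1, an exon-repressing hnRNP, with 672 ± 123 TPM (mean ± SD over all 6 samples). HNRNPAB (497 ± 39.9), HNRNPK, which binds C-rich RNA (480.5 ± 30.9), and HNRNPA2B1, a reader of RNA in splicing and transport (449.7 ± 64.6), followed, and the ranges of all 4 over the samples overlapped, with HNRNPAB (544 TPM) above HNRNPA1 (479 TPM) in KD2-2. HNRNPF, which binds G tracts, was next with 304 ± 77.4 TPM and a range of 209 to 391 that overlapped that of HNRNPC (252 to 308), which binds U tracts.

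Among the SR proteins SRSF1, the founding member, was the highest (184 ± 36.0 TPM), then SRSF3 (143 ± 21.5), SRSF9 (135 ± 11.7) and SRSF6 (126 ± 43.6), all with overlapping ranges. SRSF10 was the lowest of the 11 tested (19.0 ± 4.10). TRA2A had 63.8 ± 16.2 and TRA2B 45.9 ± 14.4 TPM. This order depends on exon lengths merged over transcripts, 3516 bases for TRA2A and 11769 for TRA2B. In CPM TRA2B was above TRA2A in every sample. Likewise HNRNPAB ranked 2 by mean TPM and 12 by mean CPM. The leading genes of the other groups were HNRNPD (225 ± 16.4), HNRNPUL1 (218 ± 8.55) and HNRNPL, which binds CA repeats (138 ± 7.60). PTBP1 had 258 ± 76.2 TPM and its widely expressed paralog PTBP3 69.1 ± 15.7, against 5.88 ± 4.63 for PTBP2. ELAVL1 had 66.7 ± 7.88 TPM, below the median of 122 over the 39 genes, and the neuronal ELAVL3 had 0.149 ± 0.0832, from 9.5 counts per sample on average. The other neuronal ELAV genes were not detectable at this depth beyond 1 read: ELAVL4 had 0 counts in all samples and ELAVL2 had 1 count in KD1-2 alone. HNRNPCL2 also had 0 counts throughout, and HNRNPCL1, HNRNPUL2-BSCL2 and SRSF12 averaged 5.17, 2.33 and 1.83 counts. HNRNPCL1 shares sequence with HNRNPC, HNRNPA1L2 with HNRNPA1, and HNRNPUL2-BSCL2 overlaps HNRNPUL2, so reads of the lower-expressed gene of each pair are uncertain.

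**Figure D1:**
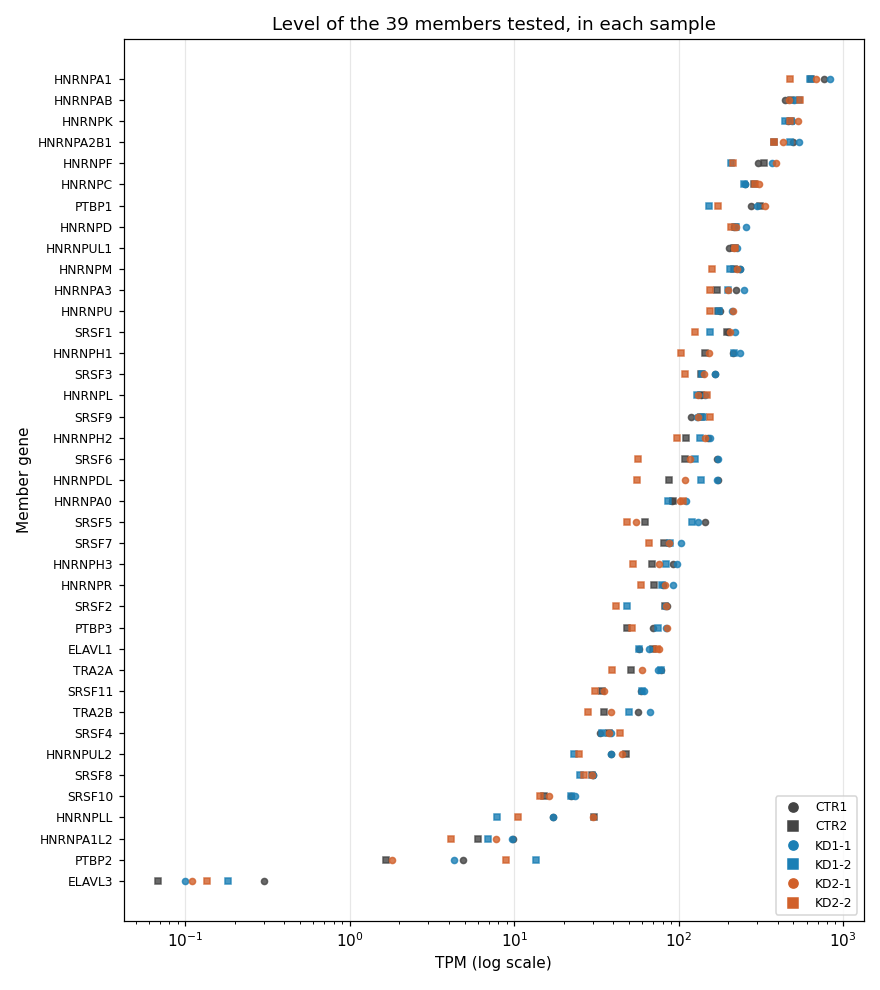
Level of each of the 39 genes tested in each sample (TPM, log scale), ordered by mean. Circles are samples numbered 1 and squares samples numbered 2, with the control in grey, sh-MIR100HG-1 in blue and sh-MIR100HG-2 in orange. Levels run from HNRNPA1 (672 TPM on average) to ELAVL3 (0.149 TPM), and PTBP2 shows the widest spread between samples.

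Within a gene, the median spread between samples was below that of all genes tested, whose median level was lower (15.8 against 122 TPM). The ratio of the highest to the lowest CPM over the 6 samples had a median of 1.53 for these genes and of 1.91 for all genes tested, was under 1.5 for 19 genes and reached 2 or more for 10. SRSF8 was the most even (1.13, from 27.9 to 31.5 CPM). PTBP2 varied by 8.51, ELAVL3 by 4.16 on few counts, HNRNPLL by 3.71, SRSF6 by 2.82, HNRNPDL by 2.78 and SRSF5 by 2.66.

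With both shRNAs averaged against the control, none of the 39 genes passed the test. At the adjusted threshold of 0.05 the quasi-likelihood test of edgeR called 0 of them and 0 of all 15372 genes (0%), and 0 of the 39 had an unadjusted p under 0.05, against 7.68% of all genes. For 0 of the 39 did all 4 knockdown samples lie beyond both controls in 1 direction, against 17.5% of all genes. At an adjusted p the likelihood ratio test called 109 and DESeq2 129 of all genes, and each called 0 of the 39. At an unadjusted p under 0.05 they too had 0 of the 39, against 8.52% and 8.72% of all genes. The median log2FC of the 39 was 0.01, with 21 above and 18 below 0, and that of all genes was -0.04. For comparison with a single-gene test, 4 samples against 2 allow 15 arrangements, so an exact permutation test could not go below a p of 0.0667.

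The family levels moved as little. The summed TPM of the hnRNP A/B genes was 2030 in CTR1 and 1768 in CTR2, 2248 and 1938 with sh-MIR100HG-1, and 1898 and 1667 with sh-MIR100HG-2. The SR proteins summed to 1119 and 922 in the controls, 1164 and 962 with sh-MIR100HG-1, and 944 and 717 with sh-MIR100HG-2. In both families the controls lay inside the range of the knockdown samples. ELAVL1 had 98.9 and 128 CPM in CTR1 and CTR2, 117 and 109.9 with sh-MIR100HG-1, and 134 and 143 with sh-MIR100HG-2. Its samples overlapped between knockdown and control, with a log2FC of 0.14 (standard error 0.19). HNRNPA2B1 had 925 and 759 CPM in the controls, 1034 and 979 with sh-MIR100HG-1 and 824 and 796 with sh-MIR100HG-2, a log2FC of 0.10 (standard error 0.17), also with overlap.

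None of the further genes described next passed the test. HNRNPU, a chromatin-associated hnRNP, had 596 and 624 CPM in the controls, 732 and 655 with sh-MIR100HG-1 and 740.4 and 591 with sh-MIR100HG-2, a log2FC of 0.15 (standard error 0.18). HNRNPD (AUF1), which promotes decay of AU-rich mRNA, had 375 and 407 CPM in the controls and between 396 and 455 in the knockdown samples, a log2FC of 0.11 (standard error 0.17). HNRNPK had 583 and 649 CPM in the controls, 632 and 623 with sh-MIR100HG-1 and 695 and 679.9 with sh-MIR100HG-2, and HNRNPC had 461 and 558, 468 and 505, and 572 and 597. In each of these 4 genes at least 1 knockdown sample lay between the controls or beyond them on the other side. SRSF1 had 166 and 172 CPM in the controls, 188 and 143 with sh-MIR100HG-1 and 174 and 117 with sh-MIR100HG-2, a log2FC of -0.12 (standard error 0.22), and SRSF3 had 293 and 255, 299.9 and 272, and 259.5 and 216, a log2FC of -0.07 (standard error 0.18). KD2-2 was the lowest sample for both. HNRNPA1 had 967 and 853 CPM in the controls, 1076 and 884 with sh-MIR100HG-1 and 893 and 681 with sh-MIR100HG-2, also with KD2-2 the lowest.

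The genes furthest from 0 in this comparison were not past the test. PTBP2 had a log2FC of 1.19 with a standard error of 0.75, PTBP3 one of 0.37 with a standard error of 0.23 and HNRNPAB one of 0.21 (0.19). HNRNPLL, known for regulating the splicing of CD45 in lymphocytes, had -0.56 (0.44), ELAVL3 -0.39 (0.72) and HNRNPUL2 -0.36 (0.28). Among the 39 the smallest adjusted p (quasi-likelihood test of edgeR) was 0.737. PTBP3 had 143 and 105 CPM in the controls, 176 and 171 with sh-MIR100HG-1 and 178 and 120.0 with sh-MIR100HG-2, so 1 knockdown sample lay between the controls. For PTBP2, KD1-1 and KD2-1 (14.2 and 5.95 CPM) lay between the controls (15.7 and 5.69). Its log2FC was -0.22 without KD1-2 and KD2-2. Without the filter on low counts PTBP2 alone of these genes passed the adjusted threshold (log2FC 1.20), among 392 of all 21349 genes.

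**Figure D2:**
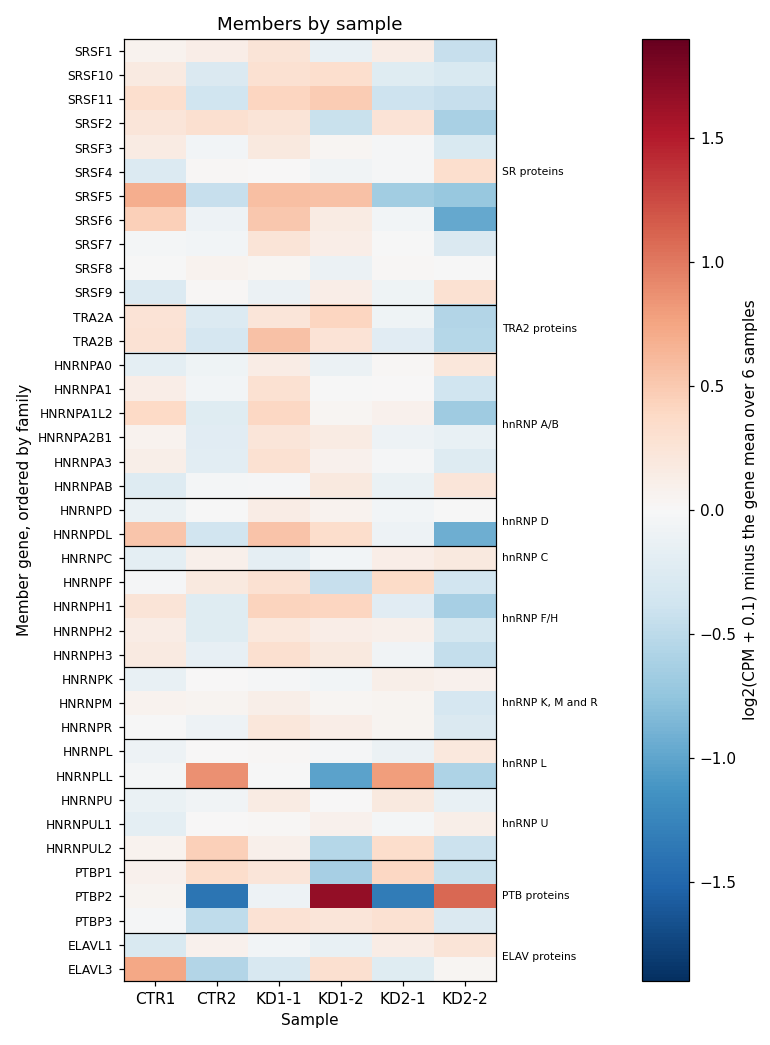
Each of the 39 genes tested in each sample, as log2(CPM + 0.1) minus the mean of that gene over the 6 samples, with genes ordered by family and families separated by lines. Red is above and blue below the gene's mean. CTR1, KD1-1 and KD1-2 are red for SRSF5, SRSF11, TRA2B and HNRNPH1 where CTR2, KD2-1 and KD2-2 are blue, and PTBP2 is red in KD1-2 and KD2-2 where PTBP1 is blue.

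Each shRNA was then compared with the control separately. These comparisons share the control samples. With sh-MIR100HG-1, 29 of the 39 genes had a log2FC above 0 and the median was 0.15, against -0.00 over all genes, but 0 had an unadjusted p under 0.05 (6.87% of all genes) and 0 passed the adjusted threshold (0% of all). The highest were PTBP2 with a log2FC of 1.55 (standard error 0.84), PTBP3 with 0.48 (0.26) and SRSF11 with 0.44 (0.26). The lowest were HNRNPLL with -0.91 (0.52), HNRNPUL2 with -0.45 (0.33) and PTBP1 with -0.35 (0.35). All 6 hnRNP A/B genes and 8 of 11 SR proteins were above 0, none of them past the test.

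With sh-MIR100HG-2 the list leaned the other way. A log2FC below 0 was seen for 26 of the 39 and the median was -0.10, against -0.04 over all genes. SRSF5 was the single gene with an unadjusted p under 0.05 (0.0244), against 8.86% of all genes, with a log2FC of -0.93 (standard error 0.34) and 0.526 after adjustment (quasi-likelihood test of edgeR). With single samples left out the log2FC of SRSF5 ran from -1.38 to -0.25. SRSF6 and HNRNPDL, an hnRNP D paralog, followed with -0.64 (0.34) and -0.61 (0.36). The highest were PTBP2 (0.83, standard error 0.82), ELAVL1 (0.29, 0.22) and SRSF4 (0.27, 0.22).

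More of these genes stood apart between the shRNA groups than between either of them and the control. In the comparison of the second shRNA with the first, which uses no control sample for the difference, 8 of the 39 genes (20.5%) had an unadjusted p under 0.05, against 9.45% of all genes. All 8 were lower with sh-MIR100HG-2, where 6.12% of all genes were. They were the SR proteins SRSF5, SRSF6, SRSF10 and SRSF11, both TRA2 proteins, HNRNPH1 and HNRNPDL. None passed the adjusted test: 0 of 39 and 0% of all genes reached the adjusted threshold in the quasi-likelihood test of edgeR, and the adjusted p of the 8 lay between 0.509 and 0.521. DESeq2 and the likelihood ratio test gave the same 8 at an unadjusted p under 0.05, against 10.8% and 10.7% of all genes. At an adjusted p they called 0 of the 39, and 103 and 91 of all genes. Without the filter on low counts SRSF5 and HNRNPDL passed the adjusted threshold, among 679 of all 21349 genes. The median log2FC of the 39 was -0.19, with 27 below 0, and that of all genes was -0.01.

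SRSF5, an SR protein of splicing enhancers, had 193 and 88.3 CPM in CTR1 and CTR2, 178 and 177 with sh-MIR100HG-1, and 75.4 and 72.8 with sh-MIR100HG-2. Its mean was 2.40-fold higher with sh-MIR100HG-1 than with sh-MIR100HG-2 (log2FC -1.26, standard error 0.34, unadjusted p of 0.0055 and an edgeR adjusted p of 0.509). CTR1 lay with the sh-MIR100HG-1 samples and CTR2 with the sh-MIR100HG-2 samples. SRSF11 was arranged alike, with 125 and 76.5 CPM in CTR1 and CTR2, 133 and 140.0 with sh-MIR100HG-1, and 76.2 and 73.5 with sh-MIR100HG-2 (log2FC -0.87, standard error 0.26). SRSF10, which represses splicing when dephosphorylated, had 56.5 and 41.3 CPM in the controls, 61.2 and 62.7 with sh-MIR100HG-1 and 42.8 and 40.9 with sh-MIR100HG-2 (log2FC -0.57, standard error 0.23). In these 3 genes the samples within each shRNA group were close, while the controls were apart.

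TRA2B, whose poison exon is printed above, had 164 and 109 CPM in CTR1 and CTR2, 199 and 162 with sh-MIR100HG-1, and 116 and 93.0 with sh-MIR100HG-2 (log2FC -0.79, standard error 0.27). TRA2A had 68.2 and 47.4 CPM in the controls, 67.1 and 75.5 with sh-MIR100HG-1, and 53.9 and 38.7 with sh-MIR100HG-2 (log2FC -0.62, standard error 0.27). In both paralogs the shRNA groups did not overlap and CTR1 was above CTR2. HNRNPH1, which binds G tracts, had 506 and 363 CPM in the controls, 571 and 563 with sh-MIR100HG-1, and 369 and 275 with sh-MIR100HG-2 (log2FC -0.82, standard error 0.25). SRSF6 had 194 and 133 CPM in the controls, 204 and 159 with sh-MIR100HG-1, and 138 and 72.4 with sh-MIR100HG-2 (log2FC -0.79, standard error 0.34). HNRNPDL had 235 and 127, then 237 and 205, then 152 and 85.4 CPM in the same order (log2FC -0.90, standard error 0.36). For SRSF6 and HNRNPDL the samples with sh-MIR100HG-2 also differed from each other, KD2-2 being the lowest of all 6 samples.

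**Figure D3:**
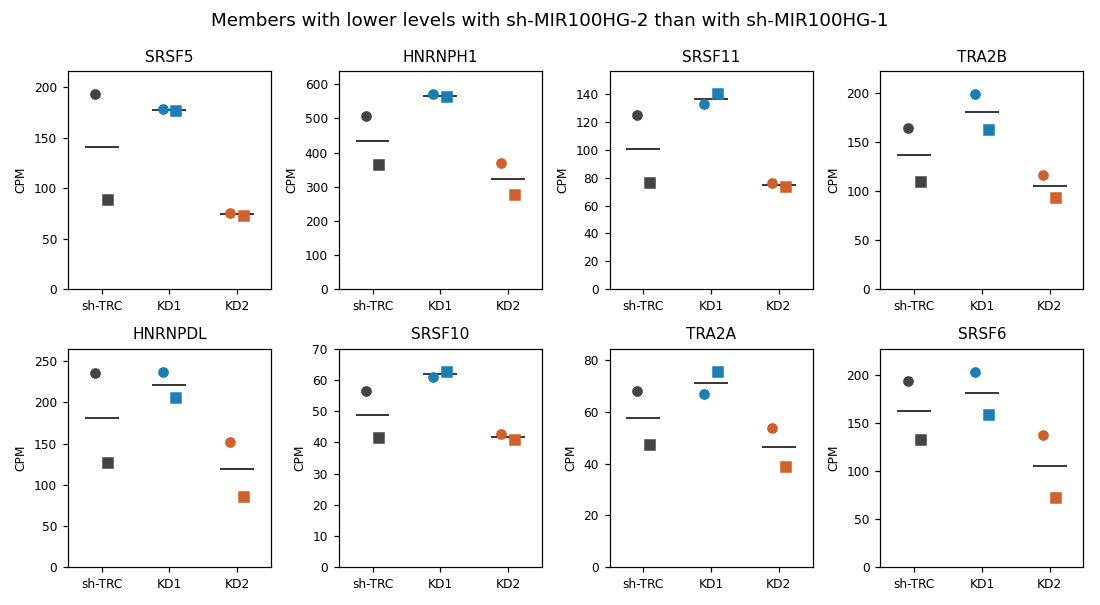
CPM of the 8 genes with an unadjusted p under 0.05 between the shRNA groups. Circles are samples numbered 1, squares samples numbered 2, horizontal lines group means, and KD1 and KD2 stand for sh-MIR100HG-1 and sh-MIR100HG-2. In every panel both KD1 points lie above both KD2 points and the CTR1 circle lies above the CTR2 square.

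The shRNA groups did not overlap for 19 of the 39 genes (48.7%), against 43.9% of all genes. With sh-MIR100HG-2 lower these were 16 genes, against 23.3% of all genes, and with sh-MIR100HG-2 higher ELAVL1, HNRNPC and HNRNPK. The log2FC of HNRNPC was 0.26 (standard error 0.20) and that of HNRNPK 0.13 (0.19). HNRNPLL had the highest log2FC (0.68, standard error 0.52), with overlapping groups, and ELAVL1 had 0.29 (standard error 0.22). Of the families, 4 of 11 SR proteins, 2 of 2 TRA2 proteins, 1 of 2 hnRNP D and 1 of 4 hnRNP F/H genes were among the 8, and 0 of the 6 hnRNP A/B, 3 PTB and 2 ELAV genes tested were.

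**Figure D4:**
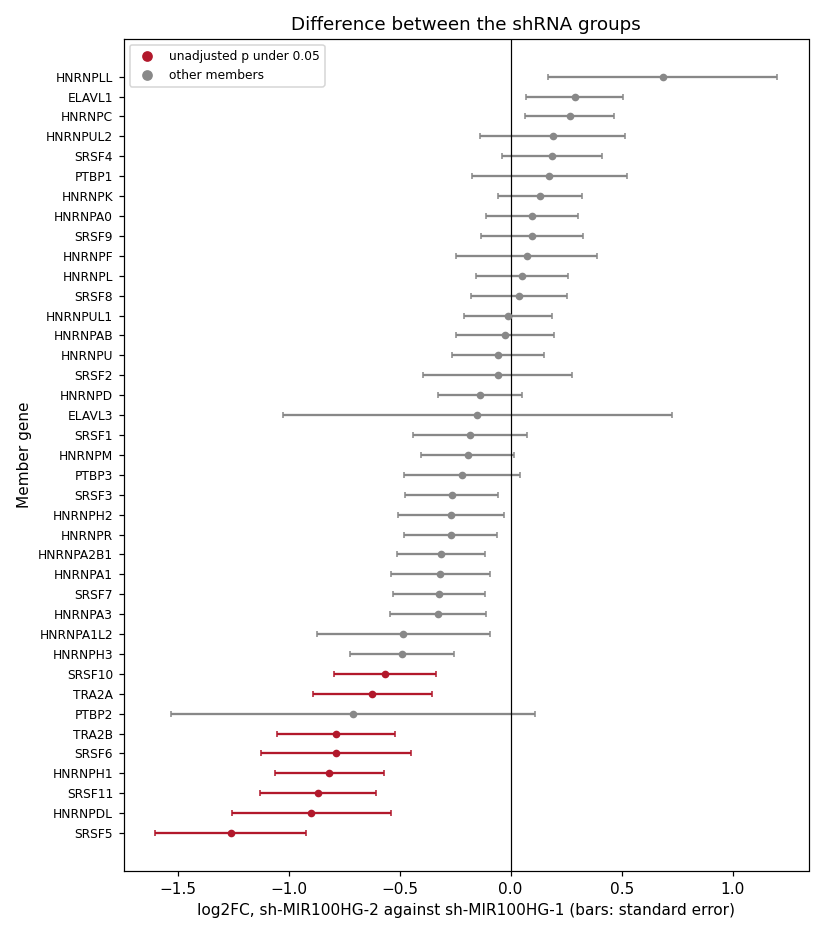
The difference of the second shRNA from the first, as log2FC, for each of the 39 genes tested, with bars of 1 standard error, ordered by value. The 8 genes in red had an unadjusted p under 0.05 and all lie below 0, from SRSF5 (-1.26) to SRSF10 (-0.57), and 0 genes above 0 are red.

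Several measurements moved with this difference. In all 8 genes CTR1 was above CTR2, with a median ratio of 1.48. The same held for 880 of the 940 genes (93.6%) that were lower with sh-MIR100HG-2 over the whole table at that p, with a median ratio of 1.64, whereas CTR1 was above CTR2 in 50.9% of all genes tested (median 1.01). The immediate early gene FOS, singled out here after its values were seen, had 182 CPM in CTR1, 252 in KD1-1 and 242 in KD1-2, against 3.06 in CTR2, 4.23 in KD2-1 and 6.83 in KD2-2. ZFP36, an early-response decay factor singled out likewise, had 202, 193 and 295 CPM against 22.1, 38.5 and 47.9 in the same samples. Their part in the difference was not tested. Whichever single sample was left out, not all of the 8 kept an unadjusted p under 0.05 in the quasi-likelihood test. The same held without both shRNA samples of 1 number. Fewest of the 8 kept it without KD1-1, without KD2-2, or without KD1-2 and KD2-2 together, where fewer of all genes did too. In all 8 genes both sh-MIR100HG-1 samples lay above both sh-MIR100HG-2 samples, so the sign could not turn with 1 sample left out. The log2FC then ran from -1.32 to -0.39 for SRSF6, -1.37 to -0.54 for HNRNPDL and -1.28 to -1.23 for SRSF5.

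A second pattern ran within the shRNA groups. For 6 of the 39 genes (15.4%) the sample numbered 2 was at least 1.5-fold from the sample numbered 1, in the same direction in both shRNA groups, which was also the case for 13.7% of all genes tested. PTBP1 had 526 CPM in KD1-1 and 289 in KD1-2, and 586 in KD2-1 and 334 in KD2-2, so it was 1.82-fold and 1.75-fold higher in the samples numbered 1. PTBP2 had 14.2 and 48.5, then 5.95 and 32.2 CPM in the same order, 3.42-fold and 5.42-fold higher in the samples numbered 2. The controls had 473 and 564 CPM of PTBP1 and 15.7 and 5.69 of PTBP2, so over the 6 samples the 3 with the least PTBP2 were KD1-1, KD2-1 and CTR2, and the 2 with the most were the 2 with the least PTBP1.

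The other 4 were lower in the samples numbered 2. HNRNPLL had 26.0 and 12.8 CPM with sh-MIR100HG-1 and 45.1 and 17.3 with sh-MIR100HG-2, and 25.3 and 47.5 in the controls. SRSF2, a component of nuclear speckles, had 63.7 and 40.1, then 64.7 and 35.0 CPM, and 63.2 and 66.1 in the controls. HNRNPF had 306 and 186, then 323 and 195 CPM, and 247 and 286 in the controls, and HNRNPUL2 had 52.2 and 33.4, then 61.2 and 36.4, and 50.9 and 66.4. For all 4 genes the samples numbered 2 of both shRNA groups lay below both controls. KD1-2 and KD2-2 belong to different shRNAs, and the labels give nothing else that they share.

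**Figure D5:**
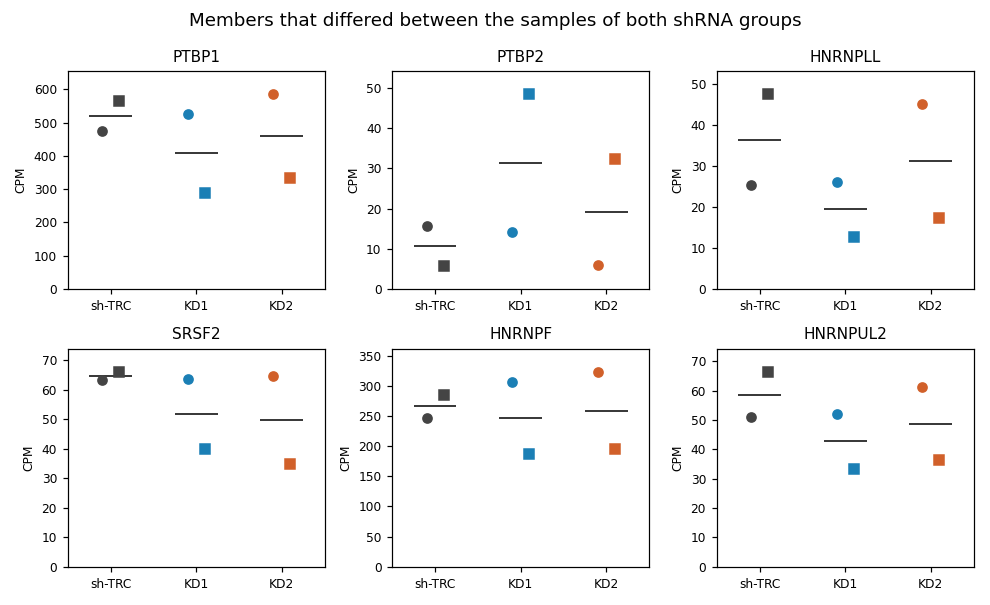
CPM of the 6 genes whose samples numbered 1 and 2 differed by at least 1.5-fold in the same direction in both shRNA groups. Circles are samples numbered 1, squares samples numbered 2 and horizontal lines group means, with KD1 and KD2 for the shRNA groups. For PTBP1 the squares of KD1 and KD2 (289 and 334 CPM) lie below the circles (526 and 586), and for PTBP2 they lie above them (48.5 and 32.2 against 14.2 and 5.95).

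The annotated transcripts of these genes were not used by the naming rule. In the GENCODE annotation 29 of the 39 tested (74.4%) have at least 1 transcript annotated as an NMD target, against 45.6% of the 14061 protein-coding genes tested. By transcripts the shares were 20.6% of 651 and 12.9%. Retained-intron transcripts were 20.4% and 20.7%, about the same. All of the 8 genes lower with sh-MIR100HG-2 than with sh-MIR100HG-1 have an NMD transcript, but by transcripts the share was 15.9% of 145, below the 20.6% of the 39. Of these 145 transcripts 29.7% retain an intron. The share was 53.3% for TRA2B (8 of 15), 42.1% for SRSF5 (8 of 19), 38.8% for HNRNPH1 (19 of 49) and 33.3% for TRA2A. It was 12.5% for SRSF10 and 11.1% for SRSF11. SRSF6 and HNRNPDL have 0 transcripts that retain an intron. Heavily studied genes carry more annotated transcripts, so these shares describe the annotation and not these cells, and no test was made on them.

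The wider machinery around these proteins was read from 6 written lists, counted at an unadjusted p under 0.05 of the quasi-likelihood test, at which 7.68% of all genes stood for both shRNAs against the control. None of their genes passed the adjusted test in any of the 4 comparisons. Of 11 kinases and importers that phosphorylate or carry SR proteins, 0 were past that p (median log2FC 0.15). Of 34 core spliceosome genes tested 0 were, although 30 had a log2FC above 0 (median 0.11), and of 14 NMD factors 0 were (median -0.00).

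Single genes stood out in the other lists. Of 48 entries of other splicing regulators tested, CELF1, which binds GU-rich RNA, was the single one past that p. It had 121 and 165 CPM in the controls, 156 and 183 with sh-MIR100HG-1 and 245 and 293 with sh-MIR100HG-2 (log2FC 0.58, standard error 0.21). KD1-1 lay between the controls. Of 12 factors that act on AU-rich elements, ZFP36L2 was the single one, with 155 and 128 CPM in the controls and 111, 94.0, 106.2 and 88.1 in the knockdown samples, all below both controls (log2FC -0.51, standard error 0.19). Of 19 textbook HuR target mRNAs, CDKN1B, which encodes the cell cycle inhibitor p27, was the single one, with 61.5 and 74.0 CPM in the controls and 94.8, 139, 106.4 and 154 in the knockdown samples, all above both (log2FC 0.87, standard error 0.25). The median log2FC of the HuR targets was 0.07, with 12 above and 7 below 0.

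Between the shRNAs 9.45% of all genes stood at that p, and each list held at least 1 gene that did. CLK1 and RBM39 are named here after their values were seen. CLK1, a kinase that phosphorylates SR proteins, was the 1 of 11 in its list, with 29.0 and 19.5 CPM in CTR1 and CTR2, 30.0 and 34.5 with sh-MIR100HG-1, and 20.9 and 17.6 with sh-MIR100HG-2 (log2FC -0.75, standard error 0.27). RBM39, a splicing factor with an arginine and serine rich domain, was 1 of 3 that were lower among the 48 entries of other splicing regulators, where CELF1 was higher. It had 285 and 167 CPM in the controls, 308 and 298 with sh-MIR100HG-1, and 179 and 152 with sh-MIR100HG-2 (log2FC -0.87, standard error 0.27). Both CLK1 and RBM39 had CTR1 above CTR2, as in the 8 genes. The other 2 that were lower were MBNL2 (log2FC -1.09) and 1 of 2 entries of MATR3. That entry had at most 3.73 CPM (log2FC -2.03), and the other MATR3 entry had a log2FC of -0.01. Of the 14 NMD factors, UPF1 (log2FC 0.83) and SMG9 (0.74) were higher, and UPF3A (-0.59) and UPF3B (-0.75) were lower. CTR2 was above CTR1 for UPF1 and SMG9. The remaining lists held 1 lower of 34 core spliceosome genes and 1 lower (ZFP36) of 12 AU-rich element factors. Of the 19 HuR targets 1 was higher and 2 were lower.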

How the data were processed

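For the 6 RNA-seq samples the authors deposited raw read counts for each gene, not normalized. Per the methods, the authors mapped trimmed reads to GRCh37 with STAR (version 2.5.2a in the submitters' processing notes, an earlier version in the methods) and the GENCODE annotation, and counted reads on exons with FeatureCounts. Strand and multi-mapping settings are not given in the sources used here. Symbols for 26966 of 27745 genes came from GENCODE names. The members and lists were chosen with earlier results of these data known. Genes for which 3 or more samples had fewer than 5 counts were removed (12373), and 15372 were tested in 1 model of 3 groups with edgeR 4.0.16 (TMM, glmQLFit, glmQLFTest, R 4.3.3), with 3 residual degrees of freedom, a prior of 5.37 and a common biological coefficient of variation of 27.8%. P-values were adjusted by Benjamini-Hochberg over the whole table, with a threshold of 0.05 for calls. With 0 genes called, the study's further limit, a log2FC above 2 or below -2, had nothing left to remove. The methods speak of a quasi-likelihood method but name glmLRT, the likelihood ratio test, which was run here as an alternative. The paper reports cancer-related genes past its limits. TPM used the deposited exon lengths, merged over transcripts. Heatmap values used log2(CPM + 0.1). Depth is high, so for most of these genes the spread between samples, not counting error, sets the precision. P-values rest on the spread between the 2 samples of a group, pooled over the 3 groups and drawn toward that of other genes. Named were MIR100HG, per comparison the 3 highest and 3 lowest members by log2FC and up to 8 at an unadjusted p under 0.05, the member with the most TPM per family, the members removed by the filter, 14 set members (HNRNPA1, HNRNPA2B1, HNRNPC, HNRNPD, HNRNPK, HNRNPU, ELAVL1, SRSF1, SRSF2, SRSF3, TRA2B, PTBP1, PTBP2, PTBP3) and, from each list, genes at that p for both shRNAs. Alternatives were DESeq2 1.42.0 and its size factors, no filter, the likelihood ratio test, a replicate block, each sample left out and, chosen after seeing the data, crossed control numbers and both samples of 1 number left out.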

Additional observations from a re-analysis of the deposited data

Results flagged for a closer look

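SRSF11 was singled out because the shRNA groups moved in opposite directions from the control. Both samples with sh-MIR100HG-1 (133 and 140.0 CPM) lay above both controls (125 and 76.5 CPM) and both samples with sh-MIR100HG-2 (76.2 and 73.5 CPM) below them. The difference between the shRNA groups was a log2FC of -0.87 (standard error 0.26, unadjusted p of 0.0101 and an edgeR adjusted p of 0.509, quasi-likelihood test), and it did not pass the adjusted test. The higher sample with sh-MIR100HG-2 (76.2 CPM) lay next to the lower control (76.5 CPM).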

How the results depend on the processing

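Counts are given in the order both shRNAs against control, the first shRNA, the second shRNA, and the second compared with the first. The quasi-likelihood test of edgeR called 0 genes at an adjusted p in each. It called 392, 227, 517 and 679 without the low-count filter, 109, 34, 121 and 91 by the likelihood ratio test, 129, 65, 165 and 103 by DESeq2, 56, 12, 45 and 57 with the samples numbered 2 of both shRNA groups left out, and 538, 127 and 220 in the first 3 with those numbered 1 left out. With single samples left out it called 0 to 1, 0 to 3, 0 to 5 and 0 to 7. The causes were not tested.

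Members at an unadjusted p under 0.05 numbered 0, 0, 1 and 8. Without the filter the first 3 counts were 2, 2 and 4, with the samples numbered 1 left out 6, 5 and 6, and with those numbered 2 left out the last was 2. Single samples left out gave 0 to 3, 0 to 3, 0 to 4 and 3 to 8. The median log2FC ran from -0.08 to 0.08, 0.08 to 0.21, -0.27 to 0.0073 and -0.38 to -0.11, and without the samples numbered 1 it was -0.25 and -0.31 in the last 2. Without the filter the members at an unadjusted p under 0.05 were 4.65%, 4.65% and 9.30% of 43 in the first 3 comparisons. Of all genes 9.05%, 7.69% and 9.89% were, so the members did not exceed the background. With the samples numbered 1 left out, the share of all genes rose too in the first 3, to about that of the members. Those higher member counts therefore do not set these genes apart. Where 1 sample was left in a group, it was assumed to vary like the others.

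By the data, the replicate numbers paired the samples of the shRNA groups with each other but not with the controls. Deviations from group means correlated across genes at -0.205 and 0.006 between the control and each shRNA group and at 0.436 between the shRNA groups (across the 39 members -0.612, -0.333 and 0.884). With the number as a block, members at that p numbered 0, 1, 3 and 9 in the same order (all 9 lower). Of all genes 10.3%, 9.24%, 11.9% and 13.1% were at that p. With control numbers crossed the members numbered 2, 3, 1 and 10 (9 of the 10 lower), against 11.0%, 10.8%, 11.1% and 12.1% of all genes.

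Direction reversed for PTBP2 without the samples numbered 2 (-0.22 for both shRNAs, -0.85 for sh-MIR100HG-2, with -0.85 to 1.75 over single samples left out), for PTBP1 with sh-MIR100HG-1 (0.012 without the samples numbered 2, and -0.84 to 0.012 over single samples left out), for ELAVL3 (-1.09 to 0.94) and for HNRNPLL between the shRNAs (-0.16 to 1.29). Without the filter PTBP2 passed the adjusted test (log2FC 1.20 for both shRNAs and 1.54 for sh-MIR100HG-1), as did SRSF5 (-0.91 with sh-MIR100HG-2) and, between the shRNAs, SRSF5 (-1.24) and HNRNPDL (-0.88), and with the samples numbered 1 left out HNRNPLL (-1.28) and PTBP2 (1.89, 2.18 and 1.61) did.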
